A study of Mus musculus with 4 samples.

Results

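CXC chemokine ligands are small secreted or membrane-held proteins that recruit leukocytes, and 6 of their genes, Cxcl1, Cxcl2, Cxcl9, Cxcl10, Cxcl12 and Cxcl16, were followed across the myeloid cells of mouse atherosclerotic aortas. They are 6 of the 18825 genes in the deposited count table and were chosen by name. Live cells bearing the leukocyte marker CD45 were sorted from aortas of Apoe-/- mice kept on a western diet (13 weeks), and single-cell 3' RNA sequencing of them gave 4 libraries, named 1-1 and 1-2 for biological replicate 1 and 2-1 and 2-2 for biological replicate 2. All mice carried the same genotype, which removes apolipoprotein E and leads to high blood cholesterol and plaques, and all ate the same diet. There was no untreated or wild type group, so every comparison below is between clusters of cells from the same aortas. The series text names 6 mice; no source used here states their sex, age or division over the replicates, and the 2 libraries of a replicate may be technical repeats.

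Cxcl1 and Cxcl2 bind the receptor CXCR2 and draw neutrophils; NF-kappaB switches both on within minutes to hours of a danger signal. Cxcl9 and Cxcl10 bind CXCR3 on T cells and natural killer cells, Cxcl9 depends mainly on interferon gamma, and Cxcl10 responds to several interferons and to NF-kappaB. Cxcl12 comes mostly from stromal cells and binds CXCR4 and the scavenging receptor ACKR3, while Cxcl16 is held on the cell surface by a stalk, takes up oxidised lipoprotein, binds CXCR6 and is released by the proteases ADAM10 and ADAM17.

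Cxcl1 (ENSMUSG00000029380), Cxcl2 (ENSMUSG00000058427), Cxcl9 (ENSMUSG00000029417) and Cxcl10 (ENSMUSG00000034855) lie on mouse chromosome 5 (GENCODE M21 on GRCm38). Cxcl1 spans bases 90891241 to 90893115 and Cxcl2 bases 90903871 to 90905938, both on the plus strand and 10755 bp apart. Cxcl9, bases 92321347 to 92328079, and Cxcl10, bases 92346638 to 92348889, are on the minus strand with 18558 bp between them. Cxcl12 (ENSMUSG00000061353) is on chromosome 6, bases 117168535 to 117181367, plus strand, and Cxcl16 (ENSMUSG00000018920) on chromosome 11, bases 70453983 to 70459984, minus strand. All 6 are protein-coding genes.

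Promoter sequence is shown for Cxcl1, Cxcl2 and Cxcl10, which were all called higher in cluster 2. Beside them stands Cxcl3, a further CXCR2 ligand of the same gene array as Cxcl1 and Cxcl2. Cxcl16 was also called higher in cluster 2, but the promoter set used held no entry for it, so its promoter was not searched. Each run is the upstream strand of the gene, 5′ to 3′, from RefSeq (GRCm38.p6): chr5:90891065-90891204 for Cxcl1, chr5:90903719-90903858 for Cxcl2, chr5:92348950-92349109 on the minus strand for Cxcl10 and chr5:90785921-90786060 for Cxcl3. Capitals mark every match, on either strand, to the letters of an NF-kappaB site (GGGNNNTTCC) or of an interferon-stimulated response element (GAAANNGAAA).
Cxcl1: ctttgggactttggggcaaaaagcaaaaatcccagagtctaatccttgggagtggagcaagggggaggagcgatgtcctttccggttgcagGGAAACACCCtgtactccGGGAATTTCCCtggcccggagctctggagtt
Cxcl2: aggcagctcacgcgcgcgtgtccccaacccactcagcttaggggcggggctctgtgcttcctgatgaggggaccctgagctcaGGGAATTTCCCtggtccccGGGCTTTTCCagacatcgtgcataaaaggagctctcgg
Cxcl10: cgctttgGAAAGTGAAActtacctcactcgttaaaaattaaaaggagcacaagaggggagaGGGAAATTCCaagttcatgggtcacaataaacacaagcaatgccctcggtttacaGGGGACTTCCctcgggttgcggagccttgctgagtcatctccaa
Cxcl3: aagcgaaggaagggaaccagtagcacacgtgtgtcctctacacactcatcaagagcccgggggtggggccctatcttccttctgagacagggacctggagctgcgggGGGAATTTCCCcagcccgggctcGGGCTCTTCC
Counted from the start site, the NF-kappaB letters stood at -89 to -80 and -71 to -61 in Cxcl1, at -97 to -87 and -78 to -69 in Cxcl2, and at -73 to -63 and -50 to -41 in Cxcl3. The matches that end at -61, -87 and -63 are palindromic runs in which a match on each strand overlaps. Cxcl10 carried them at -159 to -150 and -104 to -95, with the interferon element at -213 to -204 and an AP-1 match (TGANTCA) at -74 to -68. The windows searched were the 250 bases before each start, and the promoters of Cxcl9 and Cxcl12 held none of these letters nor of a gamma-activated site (TTCNNNGAA). Among 32851 mouse promoter windows of that length, 4.65% held the NF-kappaB letters, 2.98% the interferon element, 6.75% the AP-1 letters and 7.02% the gamma-activated site. A match is a run of letters and not a shown binding site.

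The count table held 3002 cells and 15893384 UMIs (unique molecular identifiers, each standing for 1 captured transcript), from 236 cells and 1698585 UMIs in library 1-1 to 1231 cells and 5954716 UMIs in library 1-2; no cell barcode was shared between libraries. The deposited clusters, 0 to 13, hold 635 to 41 cells and carry no names. They were named by marker genes at least 2-fold above the mean CPM of the other clusters, each cluster weighing the same. Clusters 0 and 3 were resident-macrophage-like (12 and 9 of 12 markers) and cluster 2 inflammatory-macrophage-like (9 of 12). Cluster 8 was foamy-macrophage-like (12 of 12) and cluster 13 cavity-macrophage-like (6 of 10). Cluster 2 had as many resident markers (9 of 12), so its name picks 1 of 2 equal lists, and cluster 7 held 10 of the 12 inflammatory markers. Cluster 1 had no subtype, and only 1 of 9 general macrophage markers and 2 of 12 foamy markers passed the 2-fold rule. It is called a macrophage cluster below, and these 9 general markers summed to 24631 CPM there. In the other macrophage-like clusters they summed to 23933 CPM (cluster 13) to 32706 CPM (cluster 3). Outside the macrophage clusters, cluster 10 was highest with 19162 CPM. Cluster 4 was cDC2-like (7 of 8), cluster 11 cDC1-like (8 of 8), cluster 12 mature-dendritic-like (8 of 9), cluster 5 monocyte-like (10 of 12), cluster 7 neutrophil-like (10 of 10) and cluster 9 fibroblast-like (8 of 8). Cluster 6 was proliferating (8 of 8) and also carried T cell and NK cell markers, and cluster 10 stayed unnamed. Clusters 3, 8 and 10 were shallow, with median UMIs per cell of 834, 980 and 805, against 1601 in cluster 7 and 4231 to 9680 in the others. Clusters 3 and 8 were also poor in Malat1, a nuclear RNA, with 1117 ± 987 and 389 ± 145 CPM (UMIs per 1000000 UMIs; SD, n = 2 biological replicates).

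Levels are CPM of the UMI sums of a cluster, taken per biological replicate, and no level is compared between genes. Over all cells the libraries held 3786 UMIs of Cxcl1 in 450 cells, 133453 of Cxcl2 in 2082 cells, 122 of Cxcl9 in 22 cells, 2749 of Cxcl10 in 425 cells, 401 of Cxcl12 in 141 cells and 8855 of Cxcl16 in 2065 cells. At least 1 of the 6 ligands was detected in all but 430 cells, 1124 cells held exactly 2 of them, 6 cells held 5, and no cell held all 6. Cxcl2 was highest in neutrophil-like cluster 7, Cxcl1 and Cxcl10 in inflammatory-macrophage-like cluster 2, Cxcl12 in fibroblast-like cluster 9, and Cxcl16 in mature-dendritic-like cluster 12 and macrophage cluster 1.

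**Figure D1:**
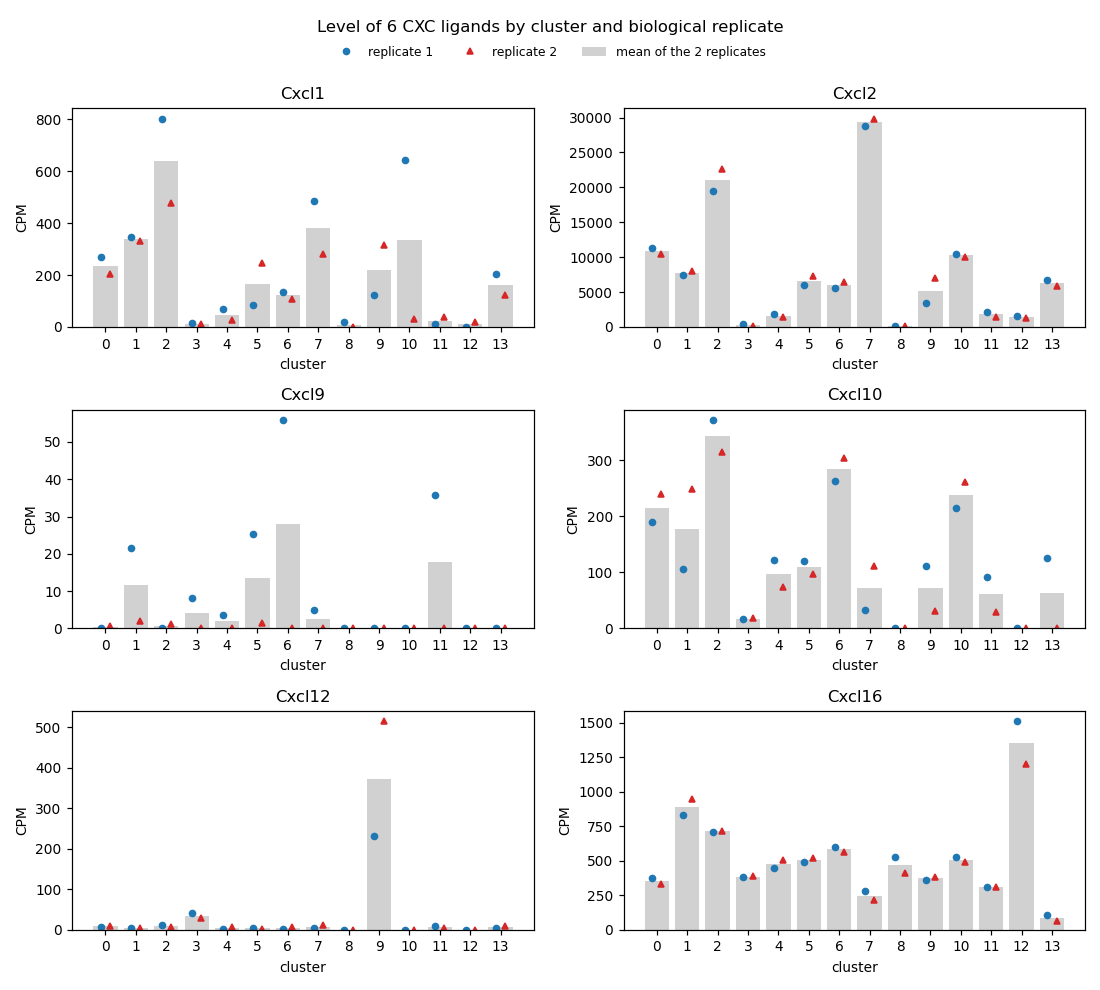
CPM of each ligand (y axes, linear) in clusters 0 to 13 (x axes); bars are means of the biological replicates, circles replicate 1 and triangles replicate 2. Cxcl2 stands highest in clusters 7 and 2, Cxcl12 in cluster 9 and Cxcl16 in clusters 12 and 1, in both replicates, whereas the Cxcl9 bars rest almost wholly on replicate 1.

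Each cluster was set against all other cells of the same replicate with edgeR's quasi-likelihood test on the summed counts, with the replicate as a block. A gene is called at a Benjamini-Hochberg adjusted p under 0.05 over all genes of that comparison. Of the 84 pairs of ligand and cluster, 77 passed the filter on low counts, 13 were called higher, 39 lower and 25 were not called; the 7 left out are all of Cxcl9. Over all genes and clusters 8.4% of tests were called higher and 10.5% lower. The authors drew the clusters from the same counts and only 4 sums enter each fit, so the p-values are too small; the levels in each replicate carry the description. A fitted log2 fold change follows TMM scaling, a correction for composition, and can differ from the ratio of CPM.

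**Figure D2:**
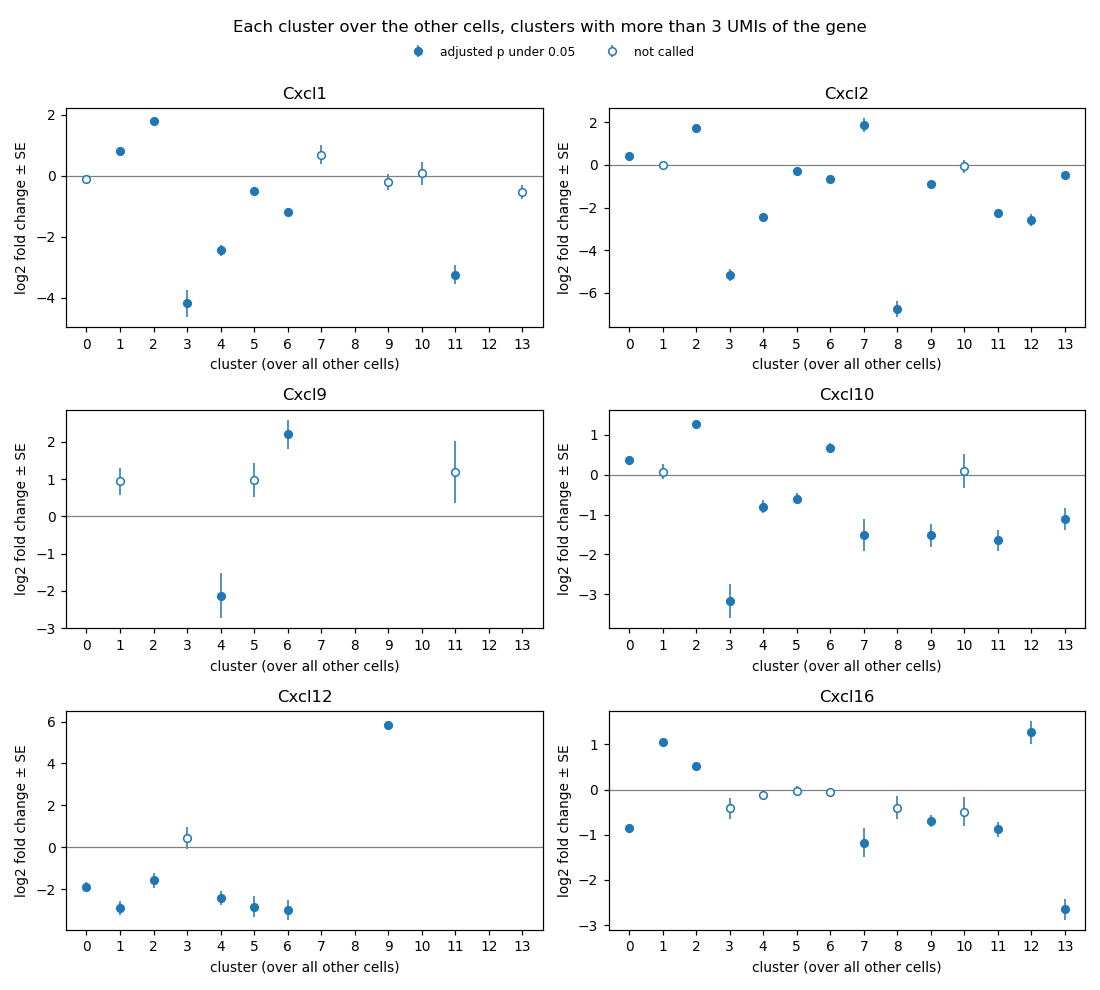
Log2 fold change of each cluster over all other cells, with its SE, for every ligand (y axes) and cluster (x axes) with more than 3 UMIs; filled points were called at an adjusted p under 0.05 and open points were not. Cxcl12 reaches 5.82 in cluster 9, Cxcl2 stands at -5.16 in cluster 3 and -6.76 in cluster 8, and Cxcl16 lies between -2.65 and 1.26.

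Cxcl2 had 28793 CPM in replicate 1 and 29858 CPM in replicate 2 of neutrophil-like cluster 7, against 7983 ± 587 CPM in the other cells (SD, n = 2). In inflammatory-macrophage-like cluster 2 it had 19496 and 22605 CPM, against 6904 ± 4.09 CPM in the other cells. These clusters stood above all others, and apart from each other by more than the sum of their SDs; the log2 fold changes were 1.87 ± 0.33 (SE) in cluster 7 and 1.72 ± 0.05 in cluster 2. Resident-macrophage-like cluster 0 followed with 11273 and 10473 CPM (log2 fold change 0.43 ± 0.05, called), level with unnamed cluster 10 at 10485 and 10010.4 CPM. Macrophage cluster 1, monocyte-like cluster 5, cavity-macrophage-like cluster 13, proliferating cluster 6 and fibroblast-like cluster 9 had means of 7780 to 5172 CPM. Below them came a step to the 3 dendritic clusters, with 1816 ± 474 CPM in cluster 11, 1609 ± 306 CPM in cluster 4 and 1448 ± 140 CPM in cluster 12. The shallow macrophage clusters were lowest, with 382 and 118 CPM in cluster 3 and 72.8 and 95.6 CPM in cluster 8. Both are the clusters poor in Malat1, and its part in the low Cxcl2 was not tested.

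Nearly every cell of clusters 2 and 7 held a Cxcl2 UMI, 98.8% (343 of 347 cells; exact 95% interval 97.1 to 99.7) and 97.6% (122 of 125; 93.1 to 99.5). Thinning each cell to 500 UMIs left 94.8% and 94.4%, although the median depth of cluster 7 was 1601 UMIs and that of cluster 2 was 4231. The same share was 40.9% in cDC2-like cluster 4 and 20.5% in mature-dendritic-like cluster 12, with 21.7% and 6.82% after thinning. The lowest share, 4.76% (5 of 105) in foamy-macrophage-like cluster 8, is the nearest to a background for Cxcl2 in these cells, at a median of 980 UMIs. The expressing cells differed widely: the median Cxcl2+ cell of cluster 2 held 89.0 Cxcl2 UMIs and the highest 473. Intervals here and below cover counting error only.

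Cxcl1 followed Cxcl2 at a lower detection rate. In cluster 2 it had 802 CPM in replicate 1 and 476 CPM in replicate 2, against 193 ± 11.1 CPM in the other cells, a log2 fold change of 1.80 ± 0.09. Macrophage cluster 1 was steadier, with 345 and 332 CPM, against 214.5 ± 31.2 CPM in the other cells (log2 fold change 0.81 ± 0.12). Both clusters lay above the other cells in each replicate. Neutrophil-like cluster 7 had 485 and 280 CPM (log2 fold change 0.70 ± 0.30, not called), and 1 of its libraries, 2-1, held no Cxcl1 UMI. Cluster 10 had 643 CPM in replicate 1 and 29.0 CPM in replicate 2, from 28 UMIs in all, so that its place in the order rests on 1 replicate. From cluster 2 down to cluster 6, at 134 and 109 CPM, no neighbours in the order of levels differed by more than their SDs, and the next step was to cDC2-like cluster 4 at 68.4 and 25.3 CPM.

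The lowest Cxcl1 levels were in clusters 11, 3, 12 and 8. Pooled over replicates, Cxcl1 was 30.8-fold lower in cluster 8 (1 UMI; counting interval 5.52 to 1216) and 18.8-fold lower in cluster 12 (3 UMIs; 6.44 to 91.4) than in the other cells. A Cxcl1 UMI was seen in 28.2% of cells of cluster 2, 20.8% of cluster 7, 21.2% of cluster 1 and 30.1% of cluster 9, and in 0.952% of cluster 8 and 2.27% of cluster 12. With 500 UMIs a cell these became 15.3%, 14.4%, 8.47% and 7.53%, and stayed at 0.952% and 2.27%. Fibroblast-like cluster 9, the deepest of the 4 at a median of 8212 UMIs, thus led only before thinning. Cxcl1, Cxcl2 and Cxcl3 are related in sequence, and how their shared reads were counted was not examined.

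**Figure D3:**
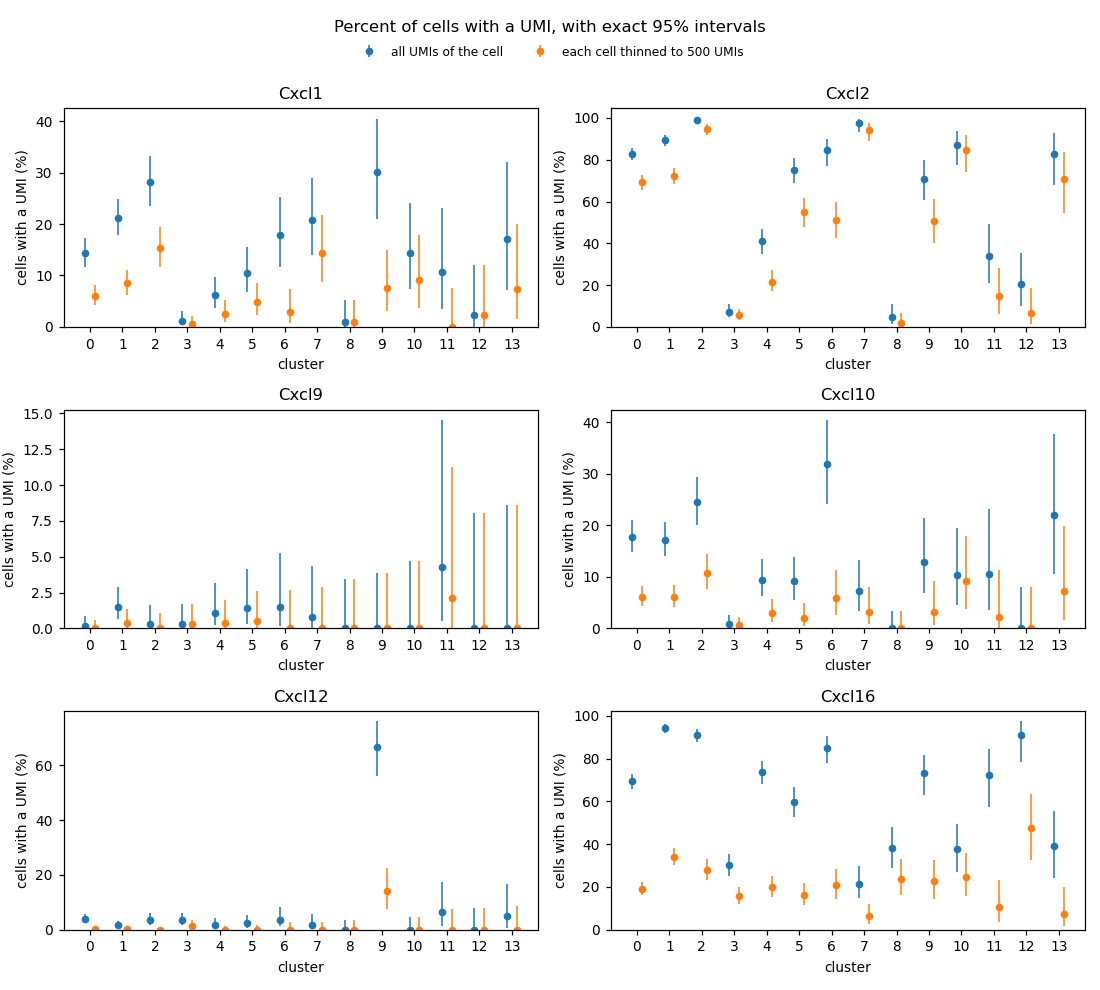
Percent of cells with at least 1 UMI of each ligand (y axes) by cluster (x axes), with exact 95% intervals; blue points use all UMIs and orange points cells thinned to 500 UMIs. Thinning lowers Cxcl16 in cluster 1 to 34.1% from its unthinned 94.3% but Cxcl2 in cluster 2 only to 94.8%, against 98.8% unthinned.

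Cxcl10 was highest in cluster 2 as well, with 372 and 315 CPM, against 153 ± 18.8 CPM in the other cells (log2 fold change 1.28 ± 0.10). Both replicates lay above both values of the other cells. Proliferating cluster 6 had 263 and 305 CPM, against 162 ± 16.6 CPM in the other cells, and resident-macrophage-like cluster 0 had 189 and 239.6 CPM, against 161 ± 5.19 CPM. These were called at log2 fold changes of 0.67 ± 0.11 and 0.36 ± 0.10. With the 4 libraries as samples neither held, at adjusted p = 0.143 and 0.104 (edgeR quasi-likelihood test), and 1 cell gave 107 of the 403 Cxcl10 UMIs of cluster 6. Cluster 1 had 106 CPM in replicate 1 and 249 CPM in replicate 2 and was not called. Cluster 10 stood at 214 and 261 CPM from 18 UMIs. Neutrophil-like cluster 7, the highest in Cxcl2, was called lower for Cxcl10, with 33.6 and 112 CPM, against 175 ± 12.2 CPM in the other cells (log2 fold change -1.51 ± 0.40; not called with DESeq2, adjusted p = 0.0707).

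No Cxcl10 UMI was found in foamy-macrophage-like cluster 8 or mature-dendritic-like cluster 12. Against a floor of 3 UMIs over the cluster, Cxcl10 was at least 7.45-fold lower in cluster 8 and at least 13.7-fold lower in cluster 12 than in the other cells; for cluster 12 DESeq2 did not call it (adjusted p = 0.345). The 0 of 105 and 0 of 44 cells allow shares of up to 2.86% and 6.82%. Cluster 12 was no shallow cluster, with a median of 5176.5 UMIs, and the cDC2-like and cDC1-like clusters had 97.7 ± 34.4 and 61.1 ± 44.0 CPM. A Cxcl10 UMI was seen in 24.5% of cluster 2, 31.9% of cluster 6 and 17.8% of cluster 0, or 10.7%, 5.93% and 5.98% with 500 UMIs a cell. Cavity-macrophage-like cluster 13 had 125 CPM in replicate 1 and 0 in replicate 2, all 34 UMIs in library 1-2.

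Cxcl9 was rare. Of its 122 UMIs, 116 came from replicate 1 (33 of library 1-1, 83 of 1-2) and 6 from replicate 2, all of library 2-2. A single proliferating cell of library 1-2 held 43, and the next cells, in clusters 1 and 5, held 19 and 13. Cluster 6 was called higher (55.9 and 0 CPM, against 5.40 ± 6.52 CPM in the other cells; log2 fold change 2.20 ± 0.40). Without that 1 cell the log2 fold change was -0.95, and without the replicate block the adjusted p was 0.107 (edgeR quasi-likelihood test). Cxcl9 was detected in 0.733% of all cells and in no cell of clusters 8, 9, 10, 12 and 13; of the 22 cells with Cxcl9, 7 also held Cxcl10, and 418 of the 2980 cells without Cxcl9 did.

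Cxcl12 was concentrated in fibroblast-like cluster 9, which gave 309 of its 401 UMIs. There it had 232 and 514 CPM, against 6.07 ± 1.05 CPM in the other cells, a log2 fold change of 5.82 ± 0.21, and both replicates stood above every other cluster. Its 4 libraries had 146, 257, 635 and 426 CPM. A Cxcl12 UMI was found in 66.7% of these cells (62 of 93; exact 95% interval 56.1 to 76.1), or 13.98% with 500 UMIs a cell. In each of the other clusters at most 6.38% of cells held one, and the 6 macrophage clusters together had 7.42 ± 0.50 CPM.

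Decorin (Dcn), a fibroblast matrix gene, served as a gauge of free or adhering stromal RNA: a Dcn UMI was found in 95.7% of cells of cluster 9 and in 11.7% to 26.8% of cells of every other cluster. Dcn is far more abundant in cluster 9 than Cxcl12, so the lower Cxcl12 shares outside it do not by themselves tell background from expression. Per 100 Dcn UMIs there were 3.31 Cxcl12 UMIs in cluster 9 and 9.64 in the other cells together. Among the other clusters with Cxcl12 this ran from 3.76 in cluster 5 to 20.8 in cluster 3, with 16.3 in cluster 0. The low ratios rest in part on single cells: 1 cell gave 44 of 133 Dcn UMIs in cluster 5, and 1 gave 69 of 107 in cluster 6. The top cell gave 4 of 53 in cluster 3 and 6 of 172 in cluster 0. Whether Dcn in such top cells was free or adhering RNA was not tested. Per 100 UMIs of the 8 fibroblast markers summed, there were 1.51 in cluster 9 and 2.11 in the other cells together. That ratio ran from 0.954 in cluster 6 to 6.21 in cluster 3. Of the 62 Cxcl12+ cells of cluster 9, 61 also held Dcn; of the 79 outside it, 19 did. How far the other cells stood from cluster 9 depended on the stromal gauge, and the source of Cxcl12 outside cluster 9 was not tested. Resident-macrophage-like cluster 3 came next, with 40.7 and 28.3 CPM from 11 UMIs in 11 cells. Relative to the other cells 8 clusters were called lower for Cxcl12. With cluster 9 taken out of the comparison, 0 were called lower and cluster 3 was called higher (log2 fold change 2.67, edgeR adjusted p = 0.0111).

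The cluster means of Cxcl16 ran from 86.3 to 1357 CPM. Mature-dendritic-like cluster 12 led with 1511 and 1203 CPM, against 546 ± 0.753 CPM in the other cells, a log2 fold change of 1.26 ± 0.26. Macrophage cluster 1 had 835 and 948 CPM, against 475 ± 3.16 CPM, and cluster 2 had 709 and 719.7 CPM, against 539 ± 0.491 CPM. All 3 lay above the other cells in each replicate, and were called at log2 fold changes of 1.26, 1.05 ± 0.09 and 0.52 ± 0.08. Cluster 12 lay apart from cluster 1, and cluster 1 from cluster 2, by more than the sums of their SDs. The cavity-macrophage-like cluster 13 was lowest, with 107 and 65.7 CPM and a log2 fold change of -2.65 ± 0.23. Clusters 0, 7, 9 and 11 were also called lower, with means of 246 to 373 CPM.

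Shallow clusters 3 and 8, so low in Cxcl2, Cxcl1 and Cxcl10, had 382 and 387 CPM and 528 and 409.5 CPM of Cxcl16 and were not called. With the 4 libraries as samples both were called lower, at adjusted p = 0.0377 in cluster 3 and 0.00258 in cluster 8 (edgeR quasi-likelihood test). A Cxcl16 UMI was found in 94.3% of cells of cluster 1, 91.1% of cluster 2 and 90.9% of cluster 12. With 500 UMIs a cell the shares were 34.1%, 28.0% and 47.7%, and cluster 12 led. The lowest thinned share was 6.40% in cluster 7. Cxcl16 varied least between libraries, with 570, 552, 579 and 542 CPM over all cells of libraries 1-1, 1-2, 2-1 and 2-2. Adam17, whose product releases Cxcl16, was named after its values were seen. It was called higher in cluster 1 (116 ± 6.64 CPM, against 77.8 ± 15.8 CPM in the other cells) and cluster 2 (105 ± 35.9 CPM, against 82.9 ± 9.82 CPM). Monocyte-like cluster 5, where Cxcl16 was not called, was also called higher for Adam17 (108 ± 25.3 CPM, against 82.7 ± 10.8 CPM). In cluster 12 Adam17 was not called (39.9 ± 28.3 CPM, against 85.8 ± 11.9 CPM). Adam10 was called in none of clusters 1, 2 and 12. The receptor gene Cxcr6 had 74 UMIs in all, 60 of them in cluster 6; it and Cxcr3 below were named after their values were seen.

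The 6 macrophage clusters (0, 1, 2, 3, 8 and 13) were also set against the 3 dendritic clusters (4, 11 and 12), which over all genes called 20% higher and 19.9% lower. Cxcl1 had 382 and 281 CPM in macrophages, against 55.9 and 26.8 CPM in dendritic cells (log2 fold change 2.99 ± 0.14). Cxcl2 had 10458 and 11292 CPM in macrophages, against 1855 and 1403 CPM in dendritic cells (2.70 ± 0.10). Cxcl10 had 177 and 237 CPM, against 110 and 59.3 CPM (1.26 ± 0.23). In each the replicates did not overlap, and 3 of 6 ligands were called higher in macrophages. The Cxcl10 call was lost with DESeq2 (adjusted p = 0.175). Cxcl16 had 608 and 594 CPM in macrophages, against 492 and 538 CPM in dendritic cells, and was not called (log2 fold change 0.17 ± 0.08); nor were Cxcl12 (0.61 ± 0.41) and Cxcl9 (0.32 ± 0.54). The pooled dendritic level of Cxcl16 hides a spread: 1357 ± 218 CPM in cluster 12, 476 ± 40.5 CPM in cluster 4 and 309 ± 2.11 CPM in cluster 11.

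Of 9 other CXC ligands listed, 7 were in the table. Cxcl3 was highest in neutrophil-like cluster 7, which gave 240 of its 522 UMIs, with 807 and 805 CPM, against 18.1 ± 1.16 CPM in the other cells (log2 fold change 5.47 ± 0.33). In cluster 2, where Cxcl1 and Cxcl2 were high, Cxcl3 had 35.6 ± 0.419 CPM, against 32.8 ± 11.4 CPM in the other cells, and was not called; monocyte-like cluster 5 was called higher (51.1 ± 9.89 CPM, against 31.4 ± 12.2 CPM). Pf4, platelet factor 4, was highest in resident-macrophage-like cluster 3 at 3703 and 4205 CPM, and was called higher in clusters 0 and 2. Cxcl13, which attracts B cells, peaked in cluster 2 on 1 replicate (5.31 and 132 CPM). The 3 other ligands tested between the classes, Cxcl3, Cxcl14 and Pf4, were all called higher in macrophages than in dendritic cells. Over all genes that comparison called 20% higher.

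Among 8 receptor genes, Cxcr2 had 134 and 336 CPM in cluster 7, against 0.660 ± 0.586 CPM in the other cells, and Cxcr4 had 489.8 and 861 CPM there, against 199.9 ± 25.2 CPM. The cluster highest in the CXCR2 ligand Cxcl2 was thus also the one with Cxcr2. Ackr3 was called higher in cluster 9 (54.2 and 104 CPM, against 1.34 ± 0.807 CPM), beside Cxcl12, and Cxcr4 was called lower there (77.8 ± 12.2 CPM, against 214 ± 26.02 CPM). Cxcr5 was called higher in cluster 12 (84.0 and 73.1 CPM, against 0.652 ± 0.572 CPM). Cxcr3, the receptor for Cxcl9 and Cxcl10, had 126 UMIs in all, with 87.1 and 29.9 CPM in cDC1-like cluster 11. Of enzymes that cut CXC ligands, Mmp9 (908 and 772 CPM) and Mmp8 (81.6 and 302 CPM) were highest in cluster 7, Mmp12 (728 and 642 CPM) in cluster 8 and Mmp2 (223 and 149 CPM) in cluster 9.

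Early NF-kappaB genes were read in the clusters where Cxcl1, Cxcl2 and Cxcl10 peaked. In cluster 2, 13 of 16 were called higher and 1 lower, with a median log2 fold change of 0.97, against -0.03 over all genes, of which 13.1% were called higher. Tnf (723 ± 25.02 CPM, against 278 ± 8.72 CPM) and Ccl3 (2468 ± 97.2 CPM, against 933 ± 44.1 CPM) were among them, while Il1b was the one called lower (1393 ± 625 CPM, against 2927 ± 601 CPM). Some of these genes also served to name cluster 2. In cluster 7, 12 of 16 were called higher and 1 lower, against 5.32% and 5.39% of all genes, among them Il1b at 11237 and 11086 CPM, against 2607 ± 526 CPM, and Nfkbia, the inhibitor that NF-kappaB induces, at 7534 and 9487 CPM. Cluster 9, where Cxcl2 was called lower, had 1 higher and 14 lower, against 12.6% and 10.7% of all genes. The list did not follow the ligands in every cluster. Cluster 6, where Cxcl10 was called higher, had 0 higher and 10 lower, against 1062 and 1039 of 10516 genes. Cluster 0, where Cxcl2 and Cxcl10 were called higher, had 8 higher and 5 lower, against 17.6% and 22.6% of all genes. Cluster 1, where Cxcl1 was called higher, had 4 higher and 2 lower, against 940 and 1087 of 10392 genes.

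Interferon genes were read in the same way. Of 12 type I interferon genes, 0 were called higher and 4 lower in cluster 2, where Cxcl10 was highest; 10 were called higher and 0 lower in cluster 0, where Cxcl10 was called higher by less, with a median log2 fold change of 1.29, against 0.00 over all genes. Over all genes 17.6% were called higher and 22.6% lower in cluster 0, and 14.3% lower in cluster 2. Rsad2, an antiviral enzyme, had 22.6 ± 5.53 CPM in cluster 2, against 53.7 ± 12.6 CPM in the other cells, and 102.8 ± 45.8 CPM in cluster 0, against 35.7 ± 2.95 CPM. Of 12 interferon gamma genes tested, 1 was called higher and 3 lower in cluster 2, against 13.1% and 14.3% of all genes; the one higher was Irf1 (143 ± 12.7 CPM, against 99.5 ± 16.7 CPM). In cluster 0, 4 were called higher and 2 lower. In cluster 12, where no Cxcl10 was found, 5 were called higher and 0 lower, against 5.13% and 8.73% of all genes. Cd274, which encodes the checkpoint ligand PD-L1, peaked in cluster 12 (324 and 505 CPM). Isg15 peaked in cluster 7 (288 and 291 CPM).

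Genes that respond to tissue dissociation, such as Fos, Jun, Junb and Dusp1, were highest in cluster 0, where all 14 of the list were called higher, against 17.6% of all genes. In cluster 2, 5 were called higher and 6 lower, against 13.1% and 14.3% of all genes, and in cluster 7, 0 higher and 4 lower, against 5.32% and 5.39%. Between macrophage and dendritic clusters 12 of 14 were called higher and 0 lower, against 20% and 19.9% of all genes. In cluster 12, 0 were called higher and 13 lower, where 8.73% of all genes were lower. Their part in the levels of Cxcl1, Cxcl2 and Cxcl10 was not tested.

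Detection of 2 ligands in 1 cell was read after thinning the 2357 cells with 2000 or more UMIs to that number. Cxcl2 was found in 94.6% of Cxcl1+ cells and 71.1% of Cxcl1- cells, higher in the Cxcl1+ cells of 4 of 4 libraries. By library the shares were 100%, 94.1%, 89.4% and 96.8% of Cxcl1+ cells, against 68.9%, 73.1%, 68.2% and 70.7% of Cxcl1- cells. Without thinning, over all 3002 cells, they were 95.3% and 64.8%, at median depths of 5307 and 4389.5 UMIs. The same held within cluster 0 (97.2% of Cxcl1+ cells, 78.4% of Cxcl1- cells), cluster 1 (96.6% and 84.3%) and cluster 5 (100% of only 14 and 68.3% of 186 cells), in 4 of 4 libraries each. Fibroblast-like cluster 9 went the other way, with Cxcl2 in 55.6% of Cxcl1+ cells and 71.4% of Cxcl1- cells and a higher share in Cxcl1+ cells in 1 of 4 libraries. Read from Cxcl2, a Cxcl1 UMI was found in 17.1% of Cxcl2+ cells and 2.80% of Cxcl2- cells.

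Over all cells Cxcl10 went with Cxcl2, by less within clusters. Cxcl2 was found in 88.1% of Cxcl10+ cells and 72.4% of Cxcl10- cells, higher in 4 of 4 libraries. Within clusters 0, 1 and 2 these shares were 86.1% and 79.8%, 87.5% and 86.2%, and 98.5% and 98.1%. Cxcl10 was found in 14.8% of Cxcl1+ cells and 11.3% of Cxcl1- cells, higher in 2 of 4 libraries. Within cluster 1 it was 9.09% of Cxcl1+ cells and 12.9% of Cxcl1- cells, lower in all 4 libraries. Over all 3002 cells without thinning Cxcl10 was found in 20.9% of Cxcl1+ and 13.0% of Cxcl1- cells, higher in 4 of 4; both the cells and their depth differ between these readings. Cxcl2 was found in 78.4% of Cxcl16+ cells and 68.2% of Cxcl16- cells (4 of 4 libraries), but in 86.0% and 87.7% within cluster 1 and 98.1% and 98.8% within cluster 2.

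**Figure D4:**
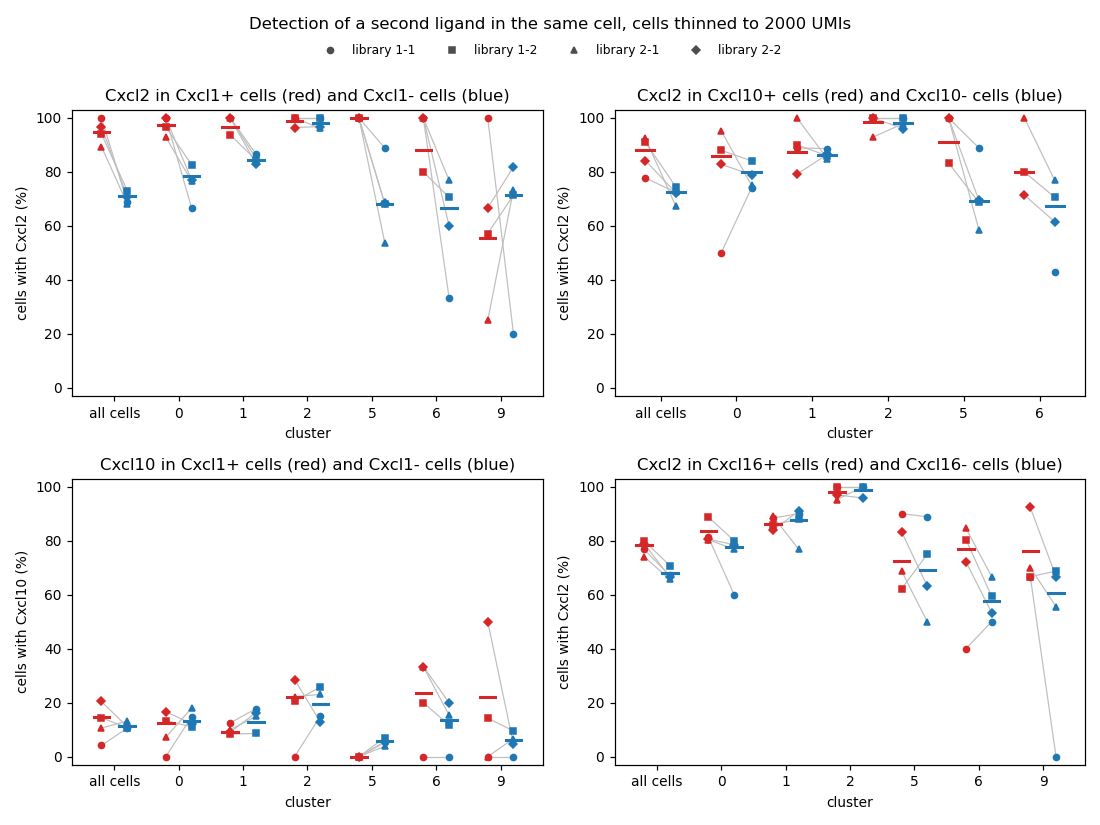
Percent of cells with a further ligand (y axes) among cells with (red, left) and without (blue, right) a first ligand, over all cells and by cluster (x axes), each cell thinned to 2000 UMIs. Bars are pooled shares, symbols are the 4 libraries and grey lines join a library; Cxcl2 stands at 94.6% of Cxcl1+ cells over all clusters, whereas Cxcl10 stands at 14.8%.

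Cells with a ligand were then set against cells without it inside 1 cluster, at 2000 UMIs a cell. Genes that differ between clusters can still differ between cells of 1 cluster, as some macrophage markers below do. A gene is counted when it moved the same way in every library, and this is a description with no test. Of 5926 genes in cluster 0, 3.14% were higher and 12.9% lower in the Cxcl10+ cells of every library. Type I interferon genes had a median log2 ratio of 1.07 in Cxcl10+ over Cxcl10- cells, against -0.08 over all genes, and 2 of 10 measurable ones were higher in every library. Rsad2 had 250, 240, 905 and 172 CPM in Cxcl10+ cells of libraries 1-1, 1-2, 2-1 and 2-2, against 55.6, 74.4, 38.5 and 37.5 CPM in Cxcl10- cells. Ifit2, singled out after its values were seen, had 177 CPM, against 35.2 CPM, and Irf1 had 437 CPM, against 210.1 CPM, both higher in 4 of 4 libraries. Nfkbia was higher too (4323 CPM, against 2997 CPM). Of 14 measurable NF-kappaB genes 2 were higher in every library, with a median log2 ratio of 0.46. Of 8 measurable interferon gamma genes 1 was higher in every library, with a median log2 ratio of 0.55. Pf4 was lower (2266 CPM, against 3177 CPM). So were 5 of 12 resident and 4 of 9 general macrophage markers in every library.

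In cluster 2 the Cxcl10+ cells were richer in NF-kappaB genes: 6 of 15 were higher in every library, against 3.05% of all genes. Il1b had 5167, 3645, 1821 and 1750.0 CPM in Cxcl10+ cells, against 913, 1819.6, 1128 and 676 CPM in Cxcl10- cells of the same libraries. Tnf had 1213 CPM, against 626 CPM, higher in 4 of 4 libraries. Only 3 type I interferon genes were measurable there and 0 were higher in every library. In cluster 1 it was again 6 of 15 NF-kappaB genes, against 3.82% of all genes; Ccl3 had 1758 CPM in Cxcl10+ cells, against 1003 CPM, and Mmp12 had 46.9 CPM, against 195 CPM.

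In cluster 2, where Cxcl1 was highest, 0 of 15 NF-kappaB genes were higher and 1 was lower in the Cxcl1+ cells of every library, against 4.05% and 8.6% of all genes. In cluster 1, 2 of 15 NF-kappaB genes were higher in every library, against 4.04% of all genes, among them Tnf (438 CPM in Cxcl1+ cells, against 309 CPM in Cxcl1- cells). Pf4 had 761 CPM in Cxcl1+ cells, against 390.3 CPM, higher in 4 of 4 libraries. Cxcl10 had 62.5, 52.1, 50 and 45.5 CPM in Cxcl1+ cells, against 189, 88.7, 418 and 204 CPM in Cxcl1- cells, lower in every library. In cluster 0, 4 of 14 NF-kappaB genes were higher, against 2.6% of all genes, with Nfkbia at 4090.0 CPM, against 3046 CPM. Cxcl2 in these cells was 19632 CPM, against 10435 CPM.

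Cxcl2 was detected in most cells of cluster 0, and its absence marked the rest: 488 Cxcl2+ cells, against 117 Cxcl2- cells, of nearly the same depth (median 4519 and 4559 UMIs). There 9 of 14 NF-kappaB genes were higher in Cxcl2+ cells of every library, with a median log2 ratio of 1.09, against 7.69% of all genes. Tnf had 386, 347, 469 and 349 CPM in Cxcl2+ cells, against 0, 88.2, 111 and 128 CPM. Cxcl1 had 267 CPM, against 17.1 CPM, and Cxcl10 had 266 CPM, against 107 CPM, both higher in 4 of 4 libraries. Resident macrophage markers moved the other way: 7 of 12 were lower in every library, against 6.92% of all genes. Of dissociation genes, 4 of 14 were higher in every library, and their part was not tested.

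In cDC2-like cluster 4 the 89 Cxcl2+ cells carried more macrophage transcripts than the 181 Cxcl2- cells. C1qa and C1qb, complement genes of macrophages, had 1871 CPM, against 304 CPM, and 1758 CPM, against 224 CPM. Pf4 had 685 CPM, against 77.3 CPM, and Csf1r 275 CPM, against 91.2 CPM, each higher in 4 of 4 libraries, as were 5.95% of all genes; C1qa, C1qb and Csf1r were named after their values were seen. The 7 of 9 general macrophage markers that were measurable summed to 8382 CPM, against 2030.4 CPM. The 7 of 8 measurable cDC2 markers summed to 2084 CPM, against 3163 CPM. The median depth was 8282 UMIs, against 6822. Macrophage transcripts were not the only ones to differ. Of 14 measurable NF-kappaB genes, 6 were higher and 0 lower in the Cxcl2+ cells of every library, against 5.95% of all genes higher. Of 14 dissociation genes, 6 were higher and 0 lower. The part of the macrophage transcripts, and of the genes of these lists, in the detection of Cxcl2 was not tested. In cluster 9 the 36 Cxcl12+ cells had more Dcn (13736 CPM, against 10122 CPM), Nfkbia (2014 CPM, against 944 CPM) and Ccl3 (736 CPM, against 278 CPM) than the 45 Cxcl12- cells in 3 of 3 libraries, as did 11.2% of all genes.

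**Figure D5:**
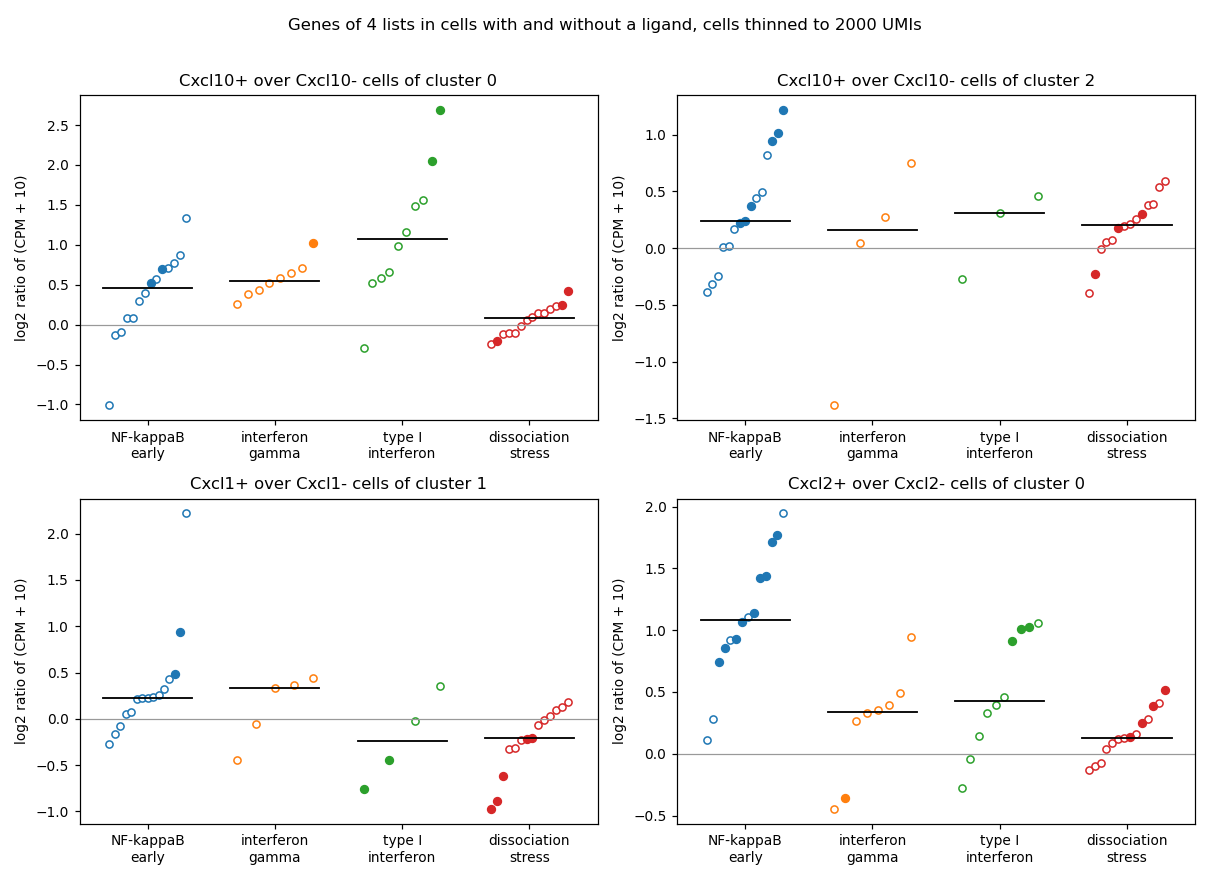
Log2 ratio of CPM plus 10 (y axes) in cells with a ligand over cells without it in the same cluster, for genes of 4 lists (x axes); filled points moved the same way in every library, open points did not, and lines are list medians. Type I interferon genes stand at a median of 1.07 in Cxcl10+ cells of cluster 0, and NF-kappaB genes at 1.09 in Cxcl2+ cells of the same cluster.

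Across the 14 clusters, the level of Cxcl1 followed that of Cxcl2 (Pearson r = 0.91 of log2(CPM + 10) cluster means) and of Cxcl10 (r = 0.82), and Cxcl2 followed Cxcl10 (r = 0.78). Cxcl16 had r of at most 0.15 with any other ligand. The points share libraries and depth, and clusters are not independent, so no test is given. With Spearman's rank correlation in place of Pearson's, at most 2 of the 4 nearest genes below stayed the same for any ligand, and 0 for Cxcl2, Cxcl12 and Cxcl16. Among 5235 genes that reached 50 CPM in a cluster, those most like Cxcl1 were Phlda1 (0.95), Cebpb (0.95), Cd14 (0.94) and Ralgds (0.92). Those most like Cxcl2 were Nfkbiz (0.97), 5031425E22Rik (0.97), Ier3 (0.96) and Rbms1 (0.96). For Cxcl10 they were Abl2 (0.96), Ugcg (0.94), Ing2 (0.93) and Ankrd17 (0.93), and for Cxcl12 the stromal genes Cryab (0.98), Gas1 (0.97), Tnxb (0.97) and Clec3b (0.97). Cxcl16 had looser matches in Mmd (0.80), Glipr1 (0.80), Pcyt1a (0.80) and Ggta1 (0.76). For Cxcl9 they were 2700029M09Rik (0.84), Scarb1 (0.74), Prpf31 (0.73) and Ddx39 (0.71), which rests on the few cells named above.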

How the data were processed

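Live CD45+ cells of atherosclerotic aortas were profiled in 4 single-cell libraries, 2 for each of 2 biological replicates. The authors deposited UMI counts per gene and cell; the submitters' processing notes name Cell Ranger 3.0.2, Seurat 3.1.1 and the build mm10. A deposited table gives natural log values, which the authors scaled to 10000 UMIs per cell (recomputed from the counts for 101 genes, with differences below 1e-10), and the percentage of mitochondrial UMIs deposited with the cells was read only as a check. Clusters are the authors'; no cell was removed here, and how doublets were treated is not stated in the labels or files.

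UMIs were summed per cluster and biological replicate and divided by the total to give CPM. Each cluster was compared with all other cells of the same replicate (edgeR 4.0.16 in R 4.3.3, filterByExpr, TMM, quasi-likelihood test, Benjamini-Hochberg adjustment over all genes), with the replicate as a block because both sums come from the same animals. The labels do not say that libraries come from different animals, so p-values may measure technical spread. The prior degrees of freedom were often estimated as infinite, which makes p-values smaller still. The script was tested on simulated counts. Alternatives were DESeq2 1.42.0, its size factors, no filter, no block, libraries as samples, thinning to 500 or 2000 UMIs, and leaving out libraries, the 5% of cells with the most UMIs, the top cell of a ligand, or clusters 3 and 8; the last of these and a comparison without cluster 9 were chosen after seeing the data. Intervals are exact Clopper-Pearson at 95%, and the largest share allowed by clusters without a Cxcl10 UMI is 3 over the number of cells. Other work used Python 3.11.15, numpy 2.4.6, scipy 1.17.1, pandas 2.3.3 and matplotlib 3.10.9. The ligands and lists were chosen with earlier results of these data known. Genes are named as ligands, as the members of a list with the highest cluster level, as called list genes in the clusters where the ligands peak, or as the 4 genes most like a ligand; exceptions are marked. The values of 1 list gene that this rule names are not reported here.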

Additional observations from a re-analysis of the deposited data

Results flagged for a closer look

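In 9 of 57 groups of 4 libraries, 1 library lay far from the other 3 by Dixon's criterion, where chance flags about 1 group in 20. Library 1-1, the smallest, gave 5 of them: Cxcl2 at 6549 CPM in cluster 1 (7858 to 8071 in the other libraries) and at 1730.2 CPM in cluster 6 (6053 to 6426), and Cxcl16 at 668 CPM in cluster 2 (719 to 724), 239.5 CPM in cluster 9 (376 to 399) and 111 CPM in cluster 11 (308 to 317). The last of these rests on 1 UMI. Library 1-2 alone held Cxcl9 in cluster 6, at 61.6 CPM, and Cxcl10 in cluster 13, at 166.5 CPM, against 0 in the other 3 libraries for both. Library 2-1 had 0 CPM of Cxcl1 in neutrophil-like cluster 7 (433 to 514 in the others) and the highest Cxcl10 over all cells, 214.5 CPM (157 to 166).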

How the results depend on the processing

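The 13 higher, 39 lower and 3 macrophage-over-dendritic calls stayed within 1.5 times under every setting run but one: with each cell thinned to 500 UMIs, 18 were called lower. Without the replicate block the counts were 13, 30 and 3; with DESeq2 they were 11, 27 and 2, and leaving out each library in turn gave 9 to 15 higher and 28 to 37 lower. Of 83 single results DESeq2 took 15 past the threshold to no call. With cluster 9 left out of the comparison, the Cxcl12 log2 fold change turned positive in cluster 0 (0.59), cluster 2 (0.63) and cluster 11 (0.051), since cluster 9 holds most Cxcl12 UMIs. In cells of 2000 UMIs or more, thinned to 2000, Cxcl2 in cluster 1 was -0.26 and was called lower (adjusted p = 0.00256, edgeR quasi-likelihood test). Over all cells without thinning it was 0.01 and not called. Cxcl9 in cluster 4 was 0.071 and not called after thinning, against -2.14 and called lower without it. The cause of these changes was not tested. Without its top cell, Cxcl9 in cluster 6 was -0.95. Few UMIs lie behind the values of clusters 3, 8 and 10, and behind Cxcl9 and Cxcl12 outside their leading clusters.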
